A study of Mus musculus with 6 samples.

Results

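The immunity-related GTPases (IRGs) are described here by 9 genes, Iigp1, Igtp, Irgm1, Irgm2, Ifi47, Tgtp1, Tgtp2, Gm12185 and Gm4951, chosen by symbol from the 23122 genes of the count table, where all 9 were found. The libraries come from subcutaneous tumors of CT26, a murine colorectal carcinoma line, in female BALB/c mice aged 6 to 8 weeks. CT26 derives from BALB/c, an immunocompetent strain. Each tumor was started from 500000 cells, and animals were divided at random once tumors measured 100 to 200 mm3. The 3 vehicle tumors and the 3 TP-18 tumors differ only in treatment, which lasted 3 weeks. TP-18, named in the series title as an antagonist of EP2 and EP4, receptors for prostaglandin E2, was given by mouth at 50 mg/kg once a day. Only 1 tumor line was used, and whether each library came from a separate mouse is not stated, so the spread between libraries may be partly technical.

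IRGs are GTPases that mouse cells make after exposure to interferons, above all interferon gamma. They are known for attacking the membranes of vacuoles in which Toxoplasma and Chlamydia live inside a cell. Effector members load onto such a vacuole and disrupt it, while the regulators Irgm1, Irgm2 and Igtp (also called Irgm3) sit on the cell's own membranes and hold the effectors inactive there. The 2 kinds are named GKS and GMS after a residue of the nucleotide-binding loop, lysine in effectors and methionine in regulators. The coding bases of that loop are shown because they divide the family. They were read from GENCODE M21 transcripts of GRCm38, run 5′ to 3′ on the coding strand and lie within 1 exon each, with the deciding codon in capitals.
Irgm1, chr11:48866761-48866784, minus strand: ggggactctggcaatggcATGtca
Irgm2, chr11:58219695-58219718, plus strand: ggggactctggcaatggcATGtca
Igtp, chr11:58206275-58206298, plus strand: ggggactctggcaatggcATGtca
Ifi47, chr11:49095648-49095671, plus strand: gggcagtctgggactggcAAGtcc
Tgtp1, chr11:48987667-48987690, minus strand: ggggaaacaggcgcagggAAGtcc
Tgtp2, chr11:49059534-49059557, minus strand: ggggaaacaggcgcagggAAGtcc
Gm12185, chr11:48916138-48916161, minus strand: ggggagactggggctggaAAGtcc
The 3 regulators had the same 24 bases. Iigp1 and Gm4951, not shown, also read as GKS. Gm12185 held 2 such loops in a coding sequence of 2505 bases, against 1218 to 1269 bases in the other members.

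Most members lie in 2 clusters. Irgm1, Gm12185, Tgtp1, Tgtp2 and Ifi47 lie on chromosome 11 between 48865245 and 49096987 and Igtp and Irgm2 on the same chromosome between 58199556 and 58222783 (RefSeq, GRCm38.p6). RefSeq promoter windows, 250 bases before to 50 after the annotated start, were at hand for the 7 genes on chromosome 11. They were searched on both strands for GAS, the interferon gamma activated pattern TTCNNNGAA, and for the core of the ISRE, GAAA, any 2 bases and GAAA again, a pattern bound by interferon regulatory factors. GAS was found in 5 of the 7 windows and the ISRE core in 6, against 8.30% and 3.44% of all 32851 windows. In the 5 windows with both, 2 bases separated GAS from an ISRE core downstream of it, on the given strand. This joined run, whose spacing was defined after these windows had been read, occurred in 5 of the 32851 windows, and those 5 are the windows of Igtp, Irgm2, Tgtp1, Tgtp2 and Gm12185. The stretches around it, with up to 20 bases on each side, are shown so that the run and its flanks can be compared between genes, with the fixed letters of the run in capitals, 5′ to 3′ in the direction of transcription.
Igtp, chr11:58199491-58199551, plus strand: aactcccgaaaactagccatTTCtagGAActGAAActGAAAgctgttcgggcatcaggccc
Irgm2, chr11:58214882-58214942, plus strand: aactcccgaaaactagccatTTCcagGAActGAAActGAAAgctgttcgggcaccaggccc
Tgtp1, chr11:48992294-48992354, minus strand: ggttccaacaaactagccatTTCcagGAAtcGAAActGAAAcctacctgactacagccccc
Tgtp2, chr11:49064253-49064313, minus strand: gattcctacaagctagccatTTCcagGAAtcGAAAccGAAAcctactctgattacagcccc
Gm12185, chr11:48927228-48927288, minus strand: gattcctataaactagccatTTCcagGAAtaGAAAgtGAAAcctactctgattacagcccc
Irgm1, chr11:48871421-48871475, minus strand: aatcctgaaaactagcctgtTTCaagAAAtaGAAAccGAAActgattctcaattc
In Irgm1 the run differed by G7A, counted from 1 at its 5′ end, so that no GAS was found there, and a second ISRE core overlapped the one shown by 4 bases. The window of Ifi47 held neither pattern in these letters. A match describes letters and does not show that a factor binds.

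**Figure D1:**
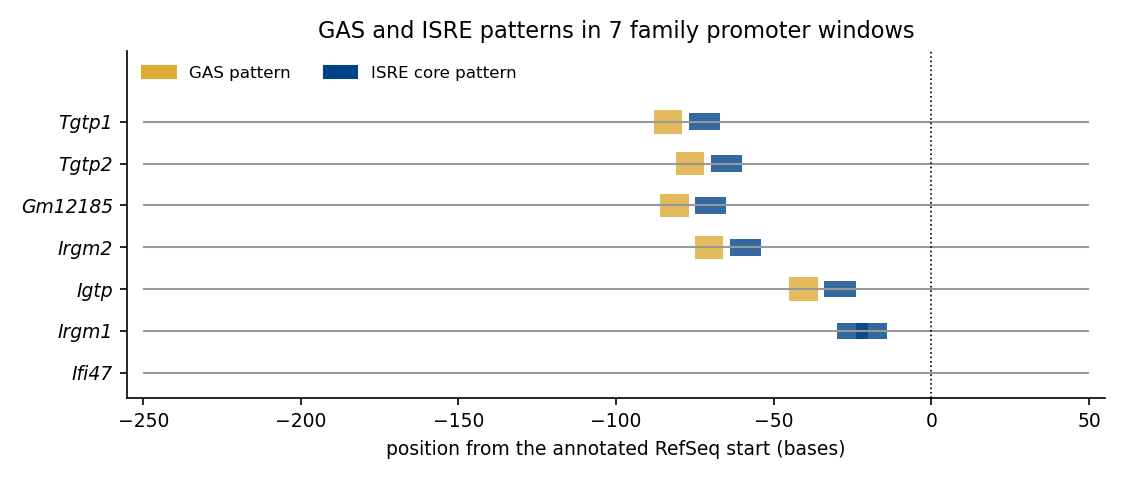
GAS (yellow) and ISRE core (blue) patterns in the promoter windows of 7 family members, by distance in bases from the annotated RefSeq start (dotted line), with the windows drawn as grey lines. In 5 windows GAS is followed directly by the ISRE core, from 88 bases upstream in Tgtp1 to 45 in Igtp, while Irgm1 has 2 overlapping ISRE cores and Ifi47 neither pattern.

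All 9 members were higher in TP-18 tumors. In quasi-likelihood tests by edgeR, adjusted by Benjamini-Hochberg over 14189 genes, 9 of 9 passed an adjusted p of 0.05, all upward. Of all tested genes 7.09% were called higher, 5.26% lower and 12.4% in either direction. The median log2 change of the members was 2.23, against -0.01 over all tested genes, and 7 of the 9 rose by more than 4-fold. Every TP-18 tumor lay above every vehicle tumor in 9 of 9 members, which held for 18.0% of tested genes. For 8 of 9 the call held in each of 6 fits with 1 library removed, as for 2.22% of tested genes, and the exception was Igtp. Together the family took 0.0246% to 0.0302% of all counts in vehicle tumors and 0.110% to 0.172% in TP-18 tumors, from libraries of 34813482 to 36489081 counts.

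The regulators come first. Levels are CPM, reads relative to the TMM-scaled library size, listed for tumors 1, 2 and 3 of a group. Irgm1, which acts in autophagy and at Golgi and lysosomal membranes, measured 57.5, 59.0 and 70.1 CPM in vehicle and 221, 277 and 166 CPM in TP-18 tumors. Its lowest TP-18 tumor was 2.37 times its highest vehicle tumor, the narrowest gap in the family. Irgm1 rose 3.56-fold, a log2 change of 1.83 ± 0.19 (SE, n = 3 per group) with an edgeR adjusted p of 0.0033. Irgm2, a Golgi regulator, measured 32.3, 31.4 and 36.7 CPM against 141, 167 and 102 CPM. The vehicle tumors were close together, with an SD of 2.87 CPM, and the TP-18 tumors spread more widely, with an SD of 32.9. Irgm2 rose by 2.03 ± 0.18 (log2, SE; edgeR adjusted p = 0.00182). Igtp, the regulator of the endoplasmic reticulum and lipid droplets, measured 43.4, 41.0 and 55.6 CPM against 197, 299 and 141 CPM. TP-18 2 stood well above the other TP-18 tumors, and the coefficient of variation among TP-18 tumors, 37.7%, was the largest of the 9 genes. Igtp rose by 2.19 ± 0.30 (log2, SE) with an edgeR adjusted p of 0.0108. Without vehicle 2 its adjusted p was 0.0531, while the log2 change was 2.11.

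Among the effectors, Iigp1 (Irga6), the best studied vacuole-attacking member, had the highest read level. It measured 58.1, 52.7 and 71.8 CPM in vehicle and 361, 418 and 289 CPM in TP-18 tumors. All TP-18 tumors were at least 4.02 times the highest vehicle tumor, and with any library left out the log2 change stayed between 2.42 and 2.69. Ifi47 (Irgd) measured 33.4, 27.3 and 33.8 CPM against 109, 129 and 93.1 CPM. At 1.81 ± 0.14 (log2, SE; edgeR adjusted p = 0.00142) its change was close to that of Irgm1, and the order of the 2 genes turned with vehicle 1 removed (1.87 in Ifi47 and 1.79 in Irgm1) or TP-18 2 removed (1.68 and 1.63). Gm4951 (Ifgga2), which lies at 60212004 to 60248440 on chromosome 18 near Iigp1 at 60373616 to 60392634 (RefSeq, GRCm38.p6), measured 14.1, 10.7 and 13.8 CPM against 62.2, 70.6 and 48.3 CPM. It rose 4.70-fold, a log2 change of 2.23 ± 0.17 (SE) with an edgeR adjusted p of 0.00142. Its coding bases were 86.3% identical to those of Iigp1, so part of their reads may fit both.

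Tgtp1 and Tgtp2 (Irgb6) encode effectors that load early onto vacuoles. Tgtp1 measured 11.3, 13.0 and 15.2 CPM in vehicle and 91.6, 108 and 61.1 CPM in TP-18 tumors. Tgtp2 measured 25.4, 25.5 and 27.9 CPM against 139, 151 and 105 CPM. Both genes separated the groups, with changes of 2.72 ± 0.23 and 2.33 ± 0.14 (log2, SE; edgeR adjusted p = 0.00195 and 0.00082). Their coding sequences differed in 4 of 1245 bases, 99.7% identity, and how the authors treated reads that fit both is not given in the sources used here, so each value is uncertain. With the reads of both summed into 1 gene, the log2 change was 2.47 ± 0.17 (SE) and the edgeR adjusted p was 0.0013.

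Gm12185 (Irgb2b1), the tandem member with 2 loops, was the scarcest and changed most. It measured 2.19, 1.44 and 3.62 CPM in vehicle, from 77, 47 and 116 reads, and 32.7, 43.2 and 22.7 CPM in TP-18 tumors, from 1215, 1577 and 887 reads. The lowest TP-18 tumor was 6.28 times the highest vehicle tumor. Its log2 change of 3.76 ± 0.40 (SE; edgeR adjusted p = 0.00502) ranked number 15 of the 14189 tested genes by size. On the log2(FPKM + 1) scale, which understates the change of low genes, it was 2.36. In GENCODE M21 the span of Gm12185, from 48904656 to 48992226, ends within Tgtp1, and that of Irgm2, from 58199618, starts within Igtp, while the RefSeq spans do not overlap. Which annotation the counts used is not named in the sources used here. The count table's gene identifiers for Gm12185, Tgtp1, Irgm2 and Igtp equal the RefSeq gene numbers. That alone does not show which spans were counted.

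**Figure D2:**
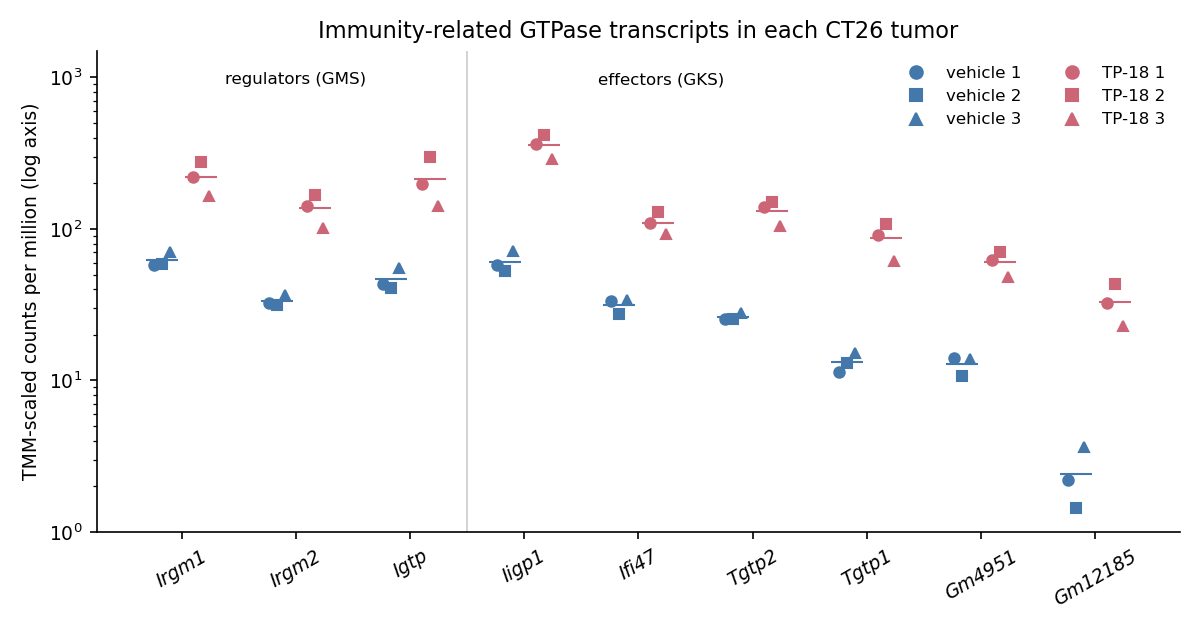
TMM-scaled CPM (log axis) of the 9 members in each tumor, with vehicle in blue, TP-18 in red, marker shapes for tumors 1, 2 and 3 and lines at the group means. Red points lie above blue points in every gene, from 22.7 CPM against at most 3.62 in Gm12185 to 289 against at most 71.8 in Iigp1.

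**Figure D3:**
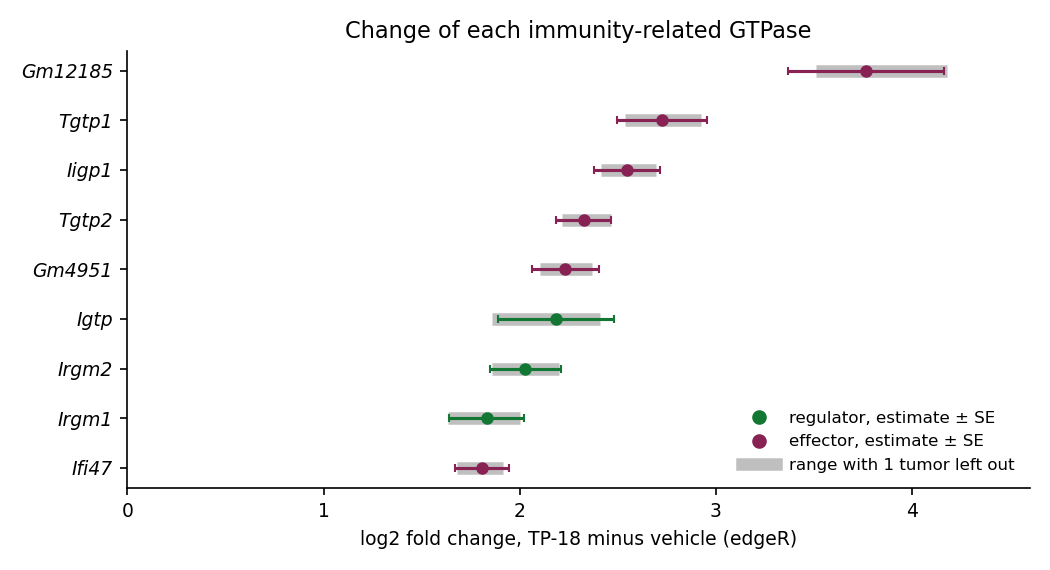
Log2 fold change of each member, TP-18 minus vehicle, as the edgeR estimate with its SE, regulators in green and effectors in purple, over grey bars that span the estimates with 1 tumor left out. Changes run from 1.81 in Ifi47 to 3.76 in Gm12185, and no grey bar reaches below 1.63.

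Levels can be compared between genes only per length, for which the authors' FPKM was used. In vehicle tumors Igtp (21.9 ± 3.14 FPKM, mean ± SD, n = 3) and Irgm1 (21.4 ± 1.70) led with overlapping ranges. Iigp1 (16.6 ± 2.37) and Ifi47 (14.9 ± 1.97) followed, then Irgm2 (9.05 ± 0.62) and Tgtp2 (8.87 ± 0.32), and neighbours within each of these pairs overlapped while the pairs were separate. Tgtp1 (4.44 ± 0.49), Gm4951 (3.37 ± 0.57) and Gm12185 (0.433 ± 0.188) came last, each below the lowest value of the gene before it. In TP-18 tumors Igtp (109.8 ± 39.7) and Iigp1 (107 ± 17.7) led, and each neighbour from Igtp down to Tgtp1 overlapped with the next. Gm4951 (17.4 ± 2.97) and Gm12185 (6.51 ± 1.92) were again the lowest 2.

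The balance of effectors to regulators was higher in TP-18 tumors. The summed FPKM of the 6 effectors over that of the 3 regulators was 0.985, 0.902 and 0.904 in vehicle and 1.21, 1.03 and 1.30 in TP-18 tumors. The groups did not overlap, and TP-18 2, the tumor with the most Igtp, lay nearest to vehicle 1. The log2 of this ratio was higher by 0.34 in TP-18 tumors, and by 0.58 when the mean log2 CPM of each class was compared, which gives scarce genes such as Gm12185 equal weight. These are values over chosen members and carry no test. Irgm1 made up 20.4% to 22.2% of the family FPKM in vehicle and 16.5% to 16.7% in TP-18 tumors, and Ifi47 13.9% to 16.2% and 10.7% to 12.7%. The mean share of Iigp1 was 16.4% ± 0.68 (SD, n = 3) in vehicle and 21.5% ± 1.37 in TP-18 tumors. That of the regulator Igtp was 21.6% ± 1.02 and 21.4% ± 2.91. Members of a class thus did not all move alike, since the share of the effector Ifi47 fell.

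Tgtp1 took 30.8%, 33.7% and 35.4% of the reads of Tgtp1 and Tgtp2 in vehicle tumors and 39.7%, 41.8% and 36.8% in TP-18 tumors. The groups did not overlap, and the mean share was 33.3% ± 2.33 (SD, n = 3) against 39.4% ± 2.50. An exact two-sided permutation test over the 6 tumors gave p = 0.10, the smallest that 3 against 3 allows. The 95% Wilson intervals of vehicle 3, 32.9% to 37.9%, and TP-18 3, 35.6% to 38.0%, overlapped. Such intervals cover counting error only. Gm12185 went from 0.549% to 1.10% of the family's reads in vehicle to 2.21% to 2.59% in TP-18 tumors.

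**Figure D4:**
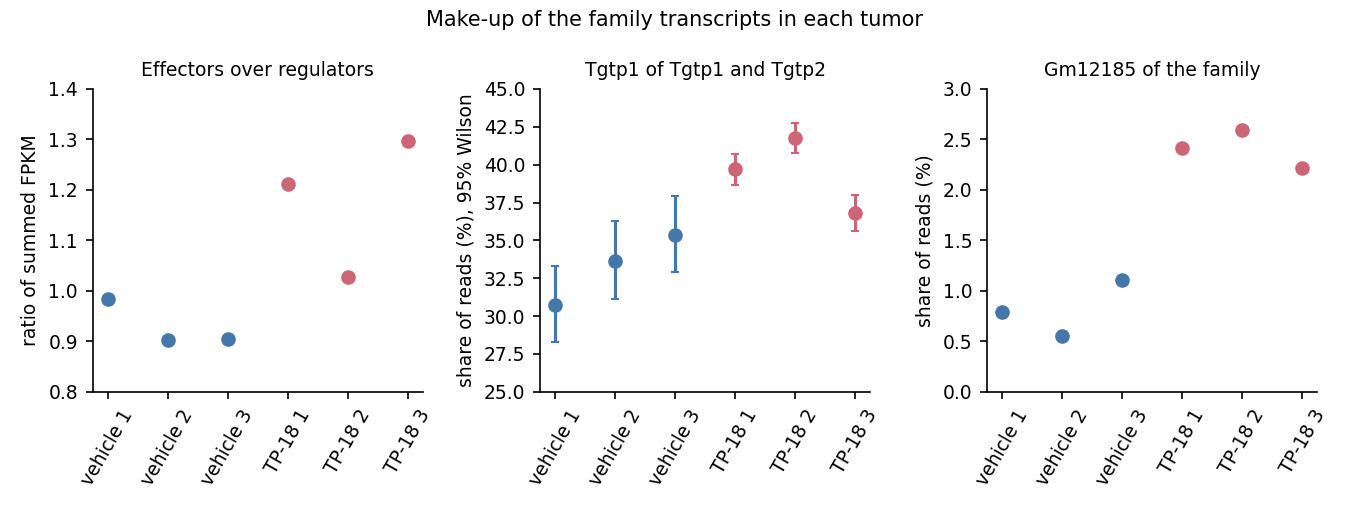
Make-up of the family in each tumor, with vehicle in blue and TP-18 in red: the ratio of effector to regulator FPKM, the Tgtp1 share of Tgtp1 and Tgtp2 reads in percent with 95% Wilson intervals, and the Gm12185 share of family reads in percent. The vertical axes of the first and second panels do not start at 0, and in each panel all TP-18 points lie above all vehicle points, in the Tgtp1 share with 36.8% as the lowest TP-18 and 35.4% as the highest vehicle value.

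The members also varied together within the TP-18 group. TP-18 2 was highest and TP-18 3 lowest in 9 of 9 genes, an order found in 17.3% of all tested genes and in 27.4% of those called higher. Among vehicle tumors, vehicle 3 was highest in 8 of 9. Ifng, the gene of interferon gamma, had the same TP-18 order, with 0.455, 0.122 and 0.375 CPM in vehicle and 3.60, 4.54 and 2.23 CPM in TP-18 tumors. So did Irf1, a factor that binds ISRE sites, with 85.5, 84.9 and 94.5 CPM against 226, 265 and 162 CPM. Among vehicle tumors Ifng was highest in vehicle 1, unlike most members. Of 13 tested interferon gamma signalling genes 7 had the TP-18 order 2, 1, 3. It was shared by 2 of 9 T cell and 2 of 5 NK cell markers. Of the lists described below, 5 of 8 tested type I interferon signalling genes and 5 of 9 vacuole genes also had it. The order was found in 8 of 15 genes of ATG8 conjugation and autophagy, of which 0 were called higher. Of 7 tested IRG genes outside the 9 members, 1 had it. These orders rest on 3 tumors and are descriptions.

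Likeness was measured as the root mean square distance over the 6 tumors between log2 CPM profiles, each centred on its own mean, and the mean profile of the 9 members. The comparison took in 9662 protein-coding genes outside the 9 members, with a minimum mean log2 CPM of 3. The profiles include the step between the groups, so a gene with a change of like size lies near even if its tumors vary otherwise within a group. The nearest were Gbp7 (0.118), Gbp4 (0.128), Gbp2b (0.153), Gbp5 (0.187), Klrk1 (0.203), Gbp3 (0.206), Cxcl10 (0.211), Gbp2 (0.219), Gbp10 (0.229) and Gbp6 (0.236), against a median distance of 1.24. Klrk1 encodes an activating receptor of NK and T cells and Cxcl10 an interferon-induced chemokine. Of the members themselves, Iigp1 (0.103) and Tgtp2 (0.105) lay nearest to the mean profile and Gm12185 (0.757) farthest. The closest pair was Irgm1 and Irgm2, at 0.106.

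Other IRG genes outside the 9 members changed in part. Of 10 symbols listed, 8 matched the table, 7 could be tested and 5 rose, with a median log2 change of 1.72. Among all tested genes 7.09% were called higher. Gm12250, which encodes the effector Irgb10, measured 9.73, 7.29 and 8.25 CPM in vehicle and 79.9, 109 and 61.0 CPM in TP-18 tumors, a log2 change of 3.30 ± 0.24 (SE; edgeR adjusted p = 0.00149). Its promoter window held GAS and the ISRE core at other places, not as the joined run. Gm4841 and F830016B08Rik, on chromosome 18 beside Gm4951, rose by 2.76 ± 0.16 and 2.58 ± 0.22 (log2, SE). 9930111J21Rik1 rose by 1.07 ± 0.17 and Gm5431 by 1.72 ± 0.38, and the adjusted p of Gm5431, 0.0267 with all libraries, was 0.0906, 0.0760 and 0.0685 with vehicle 2, TP-18 2 or TP-18 3 removed. Irgq, a relative not known to be induced by interferon, measured 21.1 ± 1.17 and 25.2 ± 1.52 CPM (SD, n = 3), with a log2 change of 0.26 ± 0.10 and an edgeR adjusted p of 0.114. 9930111J21Rik2 was scarce, at 0.534 ± 0.387 and 0.901 ± 0.235 CPM (edgeR adjusted p = 0.385), and Irgc1 was not tested.

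Guanylate-binding proteins, the larger interferon-induced GTPases that are recruited to the same vacuoles, rose throughout. The list had 11 tested genes, 10 Gbp genes and Gvin1, a very large interferon-induced GTPase that is not a guanylate-binding protein. Of the 11, 11 were called higher and 11 had the TP-18 order 2, 1, 3, with a median log2 change of 2.24. Over all tested genes 7.09% were called higher and 17.3% had that order. Gbp7, Gbp9, Gbp2 and Gbp4 had the smallest p-values, with changes of 2.20 ± 0.15, 1.71 ± 0.15, 2.10 ± 0.19 and 2.37 ± 0.21 (log2, SE). In 10 of the 11 the call held in each of 6 fits with 1 library removed, as for 2.22% of tested genes. The other was Gvin1, with an adjusted p of 0.0391 from all libraries. Its call held only with vehicle 3 removed, at 0.0114, and the value reached 0.123 with vehicle 2 removed.

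The interferon gamma signalling list had 8 of 13 tested members higher and 0 lower by edgeR, with a median of 1.00. For this list and the type I list below, the shares over all tested genes were 7.09% higher and 5.26% lower. Ifng rose by 3.42 ± 0.50 (log2, SE), Irf1 by 1.30 ± 0.17, Irf8, a factor of myeloid cells, by 1.26 ± 0.13, and Nlrc5, the activator of MHC class I genes, by 1.00 ± 0.13. The receptor chain Ifngr2 measured 71.2 ± 3.58 and 67.4 ± 6.07 CPM (SD, n = 3; edgeR adjusted p = 0.596), and the kinase Jak1 163 ± 25.7 and 174 ± 5.17 CPM (edgeR adjusted p = 0.597). Ifngr1, the ligand-binding chain, rose from 51.7 ± 7.96 to 72.7 ± 3.57 CPM, a log2 change of 0.49 ± 0.11 (SE; edgeR adjusted p = 0.0319). The call of Ifngr1 held in 1 of 6 fits with a library removed, that without vehicle 1, and the other adjusted p-values ran from 0.0661 to 0.115. These 3 genes were chosen after their values were seen. Of 8 tested type I interferon signalling genes, 3 rose, with a median of 0.54. They were Tyk2, a receptor kinase (0.48 ± 0.09), Stat2 (1.37 ± 0.23) and Irf9 (0.62 ± 0.14), factors of the response at ISRE sites. With vehicle 2 removed the adjusted p-values were 0.0651, 0.0721 and 0.110, so that 0 of 3 passed. With TP-18 1 or TP-18 2 removed, Stat2 alone of the 3 passed, and with vehicle 1 removed Irf9 was at 0.0639. Irf7 measured 99.4 ± 27.4 and 208 ± 63.6 CPM (edgeR adjusted p = 0.0575). Ifnb1 and Ifna4, genes of type I interferons, were too scarce to be tested, at mean levels of at most 0.0613 CPM.

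Loading of IRGs onto vacuoles needs the machinery that attaches ATG8 proteins to membranes, which is also used in autophagy. Of 15 genes tested, from this machinery and from autophagy more widely, such as Becn1 and Ulk1, 0 rose and 2 fell by edgeR. Of all tested genes 7.09% were called higher and 5.26% lower. The median log2 change of the 15 was -0.16, and 0 of them kept a lower call in all 6 fits with 1 library removed. Sqstm1, the autophagy receptor p62, went from 1005 ± 124 to 564 ± 86.3 CPM (SD, n = 3), a log2 change of -0.83 ± 0.14, and its adjusted p of 0.0107 was 0.0530 without TP-18 3. Gabarapl1, an ATG8 protein, changed by -0.57 ± 0.12, and its adjusted p of 0.0211 was 0.0830, 0.0674 and 0.0876 with vehicle 2, TP-18 1 or TP-18 3 removed. The conjugation enzyme Atg3 measured 52.6 ± 2.92 and 43.3 ± 1.98 CPM (edgeR adjusted p = 0.0603), and Atg12 76.9 ± 3.94 and 66.3 ± 2.83 CPM (0.103). By limma on log2(FPKM + 1) the adjusted p-values of Atg3 and Atg12 were 0.242 and 0.521. Those of Sqstm1 and Gabarapl1 were 0.0169 and 0.0372 on that scale. Among 9 tested genes of ubiquitin tagging and sensing at vacuoles, 3 rose. Rnf213, a large ubiquitin ligase, rose by 0.98 ± 0.13 (log2, SE) and Trim21, a ligase that is also an antibody receptor, by 1.13 ± 0.17. Nod2, a bacterial sensor, rose by 1.29 ± 0.26 (adjusted p = 0.0208). The Nod2 value was 0.0825, 0.0703 and 0.0884 with vehicle 2, TP-18 2 or TP-18 3 removed. Ube2n measured 121 ± 5.70 and 105 ± 6.10 CPM (edgeR adjusted p = 0.119).

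**Figure D5:**
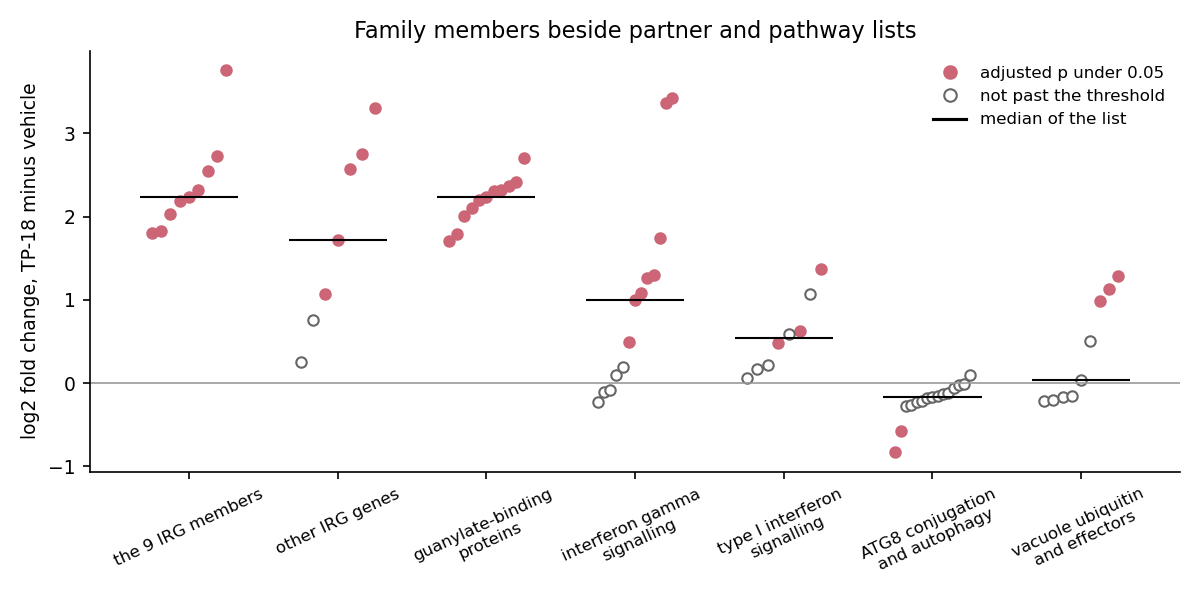
Log2 fold change, TP-18 minus vehicle, of every tested gene in the family and in 6 partner and pathway lists, with filled points past an adjusted p of 0.05 in edgeR, open points not past it and black lines at the medians. Family members and the guanylate-binding protein list, which includes Gvin1, are all filled with medians of 2.23 and 2.24. The ATG8 conjugation and autophagy genes centre on -0.16 with 2 filled points, both below 0.

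In bulk tumors, more or fewer cells of a type and more or less RNA per cell cannot be told apart. Markers of immune cells moved with the groups. For the counts of called markers, the shares over all tested genes were 7.09% higher and 5.26% lower. T cell markers summed to 14.4 to 29.1 CPM in vehicle and 77.2 to 87.3 in TP-18 tumors, with 9 of 9 genes higher, and NK cell markers to 10.1 to 11.8 and 39.3 to 44.8 CPM, with 5 of 5 higher. Dendritic cell markers summed to 14.5 to 23.9 and 46.9 to 53.1 CPM, with 5 of 6 higher. Among vehicle tumors, vehicle 1 had the largest T cell sum, 29.1 CPM against 14.5 and 14.4 in vehicle 2 and 3. Its dendritic cell sum was also the largest, 23.9 CPM against 16.7 and 14.5. Macrophage markers summed to 851 to 1316 and 1529 to 1643 CPM, with 2 of 9 higher, Adgre1 (1.36 log2) and Fcgr1. In 6 of the 9 every TP-18 tumor lay above every vehicle tumor, as in 18.0% of tested genes. With vehicle 1 removed, Csf1r, C1qa, C1qb and C1qc passed (edgeR adjusted p = 0.0014, 0.0018, 0.0035 and 0.0014) and Fcgr1 did not (0.0645). Csf1r and the C1q genes did not pass in the other fits with 1 library removed. Skeletal muscle markers went from 9.81 to 24.7 to 56.3 to 103 CPM, with 6 of 8 higher, and red blood cell markers from 66.3 to 395 to 14.8 to 33.9 CPM, with 4 of 5 tested genes lower. Of 7 fibroblast, 6 endothelial and 5 neutrophil markers tested, 0 were called in either direction by edgeR. Vehicle 3 stood apart in these lists. Neutrophil markers summed to 325 CPM there against 32.1 and 55.2 in vehicle 1 and 2, fibroblast markers to 6418 against 2348 and 2463, and endothelial markers to 63.7 against 138 and 150 CPM. With vehicle 3 removed, the neutrophil gene Csf3r (edgeR adjusted p = 0.0163) and the fibroblast gene Col1a2 (0.0299) were called higher, and 9 of 9 IRG members stayed called. B and plasma cell markers were near 0, with sums of at most 5.42 CPM, and Ms4a1 and Cd79a were among those too scarce to be tested. The plasma cell genes Jchain (edgeR adjusted p = 0.00572) and Mzb1 (0.0229) were higher, while the B cell gene Cd79b measured 0.532 ± 0.574 and 1.32 ± 0.0851 CPM (0.237, or 0.00946 with vehicle 1 removed). The call of Mzb1 was lost with TP-18 2 or TP-18 3 removed, with adjusted p-values of up to 0.0768. Of 3 tested adipocyte markers 1 was higher. Calls held in all 6 fits with 1 library removed for 5 of 5 NK and 3 of 9 T cell markers. They held for 3 of 6 dendritic cell, 3 of 8 muscle, 1 of 9 macrophage and 0 of 5 red blood cell markers. Of all tested genes 2.22% kept a higher call in this way. No listed marker was at 0 in every library. The part of these markers in the changes of the IRG genes was not tested. Of 6 epithelial markers 3 were tested, with 0 called higher and 1 lower by edgeR. In 2 of the 3 every TP-18 tumor lay below every vehicle tumor, and in 1 every TP-18 tumor lay above. Over all tested genes these shares were 17.8% and 18.0%. Krt18 and Cdh1 were not called (edgeR adjusted p = 0.0649 and 0.0647). Krt20 was abundant, at 342, 315 and 263 CPM in vehicle and 184, 225 and 200 CPM in TP-18 tumors. Its log2 change of -0.60 had an adjusted p of 0.0204 from all libraries. That adjusted p was 0.0827, 0.0693 and 0.0818 with vehicle 2, TP-18 1 or TP-18 3 removed. Epcam, Krt8 and Krt19 reached at most 2.94 CPM in any tumor and were not tested, so only 3 of the 6 epithelial markers could be followed in these libraries.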

How the data were processed

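RNA sequencing counts of 3 vehicle and 3 TP-18 tumors were grouped by the treatment label. The deposited counts are whole reads per gene, and the FPKM values were made by the authors from the same counts, gene length and library total, as checked in 14248 genes. The submitters' processing notes name fastp, HISAT2, HTSeq and GRCm38; how strand and multi-mapping reads were handled is not given there. Genes were filtered with filterByExpr (minimum count 10, minimum total 15) and tested with edgeR 4.0.16 in R 4.3.3 (TMM scaling, robust quasi-likelihood F test, two-sided, group as the only term), with Benjamini-Hochberg adjustment over 14189 genes. SE was derived from the F statistic. The procedure was tested on simulated counts with the same dispersion for every gene, a simpler setting than these data. Members and lists were chosen with earlier results of these data known. Named genes were all members, other IRG genes, up to 4 genes of each pathway list by smallest p, the 10 nearest profiles, Ifng and Irf1, except that some results are not reported here; exceptions to a count, single markers, Ifngr1, Ifngr2 and Jak1 were named after their values were seen. Coding sequences were aligned globally with Biopython 1.88. Alternatives were RLE scaling, other filters, a replicate block, DESeq2 1.42.0, limma 3.58.1 (voom, or a trend fit to log2 FPKM, adding 1 or 0.1), and each library left out. Intervals cover counting error only.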

Additional observations from a re-analysis of the deposited data

How the results depend on the processing

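Under 16 alternatives, all planned, the log2 changes of the 9 members stayed positive, between 1.63 and 4.18, and 142 of 144 values kept their side of the threshold. The exceptions were both Igtp, at adjusted p-values of 0.0531 without vehicle 2 and 0.0527 with the replicate block. Gm12185 was 2.36 on the log2(FPKM + 1) scale. Leaving out 1 library gave 8 to 9 members higher and 0 lower. Also higher were 4 to 5 other IRG genes, 10 to 11 guanylate-binding proteins with Gvin1 included, and 6 to 8 interferon gamma signalling genes. Type I signalling genes higher numbered 0 to 4 and vacuole genes 2 to 4, and 0 to 3 genes of ATG8 conjugation and autophagy were lower. The Tgtp1 share then differed by 4.91 to 7.48 percentage points, and the log2 ratio of effectors to regulators by 0.26 to 0.43. That ratio was 0.58 with mean log2 CPM, which weights scarce genes more. Genes of ATG8 conjugation and autophagy called lower numbered 1 by limma on log2 FPKM without a filter, where more genes are tested. FPKM, not rescaled by TMM, moved the median of all genes by 0.13 to 0.14 (log2), and FPKM changes are relative to that. The labels state no pairing: deviations of same-numbered tumors correlated at 0.24, -0.08 and -0.04 across genes, and of the TP-18 tumors only number 1 was closest to its same-numbered vehicle tumor. With the replicate block, 547 genes were higher and 231 lower, against 1006 and 747 without it, and 8 members and 1 type I signalling gene were higher. Other counts of list members stayed within 1.5 times under the block. DESeq2 called 1454 genes higher and 1202 lower, and limma on log2(FPKM + 1) 1317 and 225 with the filter and 662 and 78 without it, or 1329 and 235 with 0.1 added. Leaving out 1 library gave 388 to 1216 genes higher and 111 to 1023 lower, with the fewest without TP-18 3 (388 and 111) and without vehicle 2 (411 and 112).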

Other observations

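The IRG genes of chromosome 18 did not all share the order of the TP-18 tumors. F830016B08Rik measured 87.9, 63.4 and 60.1 CPM in TP-18 1, 2 and 3, and Gm4841 33.9, 28.1 and 24.8 CPM, both highest in TP-18 1. Their vehicle values were 8.94, 12.2 and 14.4 CPM for F830016B08Rik and 4.04, 3.98 and 4.81 CPM for Gm4841. Their neighbour Gm4951 was highest in TP-18 2, as were Iigp1 and all 7 members on chromosome 11. With 3 tumors this difference in order was not tested. 9930111J21Rik1, which lies on chromosome 11 between Gm12185 and Tgtp1, was also highest in TP-18 1, at 9.11 CPM against 8.73 and 8.10 in the other two.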
